A study of Mus musculus with 28 samples.

Results

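The comparison described here set total mRNA of MN1 cells expressing the hTDP-43 A315T mutant against total mRNA of MN1 cells expressing wild-type hTDP-43. Its members were the 4 total mRNA libraries that the labels give these 2 genotypes, 2 for each, out of 28 libraries in the series. MN1 is a mouse motor neuron-like cell line that arose by fusing neuroblastoma cells with embryonic motor neurons. The cells were at passage 10 to 12 and were transiently transfected with plasmids in which a CMV promoter drove human TDP-43 with a FLAG tag at its N-terminus and a V5 tag at its C-terminus, and every MN1 culture, GFP controls included, received cycloheximide at 100 µg/ml for 3 min before lysis. A transfected dish holds both transfected and untransfected cells, and fewer cells of a kind and less RNA per cell cannot be told apart in any value below. One A315T library and one hTDP-43 library were made from cultures of each of 2 dates, which the replicate number marks, so that the ratio between the genotypes can be read within each date.

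TDP-43 is an RNA-binding protein, mostly nuclear, that controls splicing, stability and translation of many mRNAs and prefers UG-rich sequences. It forms cytoplasmic inclusions in most patients with amyotrophic lateral sclerosis (ALS) and in many with frontotemporal dementia (FTD). A315T is a patient mutation in the glycine-rich C-terminal region of the protein, and the comparison asks which mRNA levels differed between cells carrying the mutant and cells carrying the normal human protein.

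The libraries held 2988339 and 1912457 assigned reads for A315T and 1720465 and 1328528 for hTDP-43 (replicates 1 and 2), so that both A315T libraries were deeper than both hTDP-43 libraries. A count of 3, taken as the floor of detection, corresponded to between 1.00 and 2.26 CPM (counts scaled to a library of 1000000 reads) in these libraries, for counting error only. The gene with the most reads was Lars2, a mitochondrial leucyl-tRNA synthetase gene, with 6.70% and 7.21% of the reads in A315T and 6.37% and 5.84% in hTDP-43. The part that depth or the Lars2 share play in the results was not tested. Markers fitted the label in part. Phox2a, Hand2 and Prph, genes of the sympathetic and peripheral neuron lineage, were abundant, at 425.5 to 496.9 CPM, 1194 to 1420 CPM and 807.4 to 1050 CPM, and Isl1, a motor neuron transcription factor, was at 30.2 to 46.6 CPM. Chat, the enzyme that makes acetylcholine, was at 0 to 2.14 CPM, at or near the floor. Of 6 astrocyte markers none was tested, and their summed level was 0 to 1.37 CPM. None of the 6 fibroblast markers was tested either.

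Tardbp, the mouse gene of the expressed protein, showed no detectable difference between the genotypes. Its level was 484.2 and 446.2 CPM in A315T, 514 and 430.7 CPM in hTDP-43 and 306.6 and 265.5 CPM in the GFP cultures. The A315T and hTDP-43 values overlapped and all 4 lay above the GFP values. The log2 fold change of A315T over hTDP-43 was -0.02 ± 0.10 (SE, n = 2 libraries a genotype; adjusted p = 0.976 by edgeR). Reads of the human transgene and of mouse Tardbp cannot be told apart in these counts.

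Between the genotypes, 76 of 10080 tested genes passed an adjusted p of 0.05 in an edgeR quasi-likelihood fit with the culture date as a block, which is 0.754% of the genes tested. Of these, 56 were higher (0.556%) and 20 lower (0.198%) in A315T. Their log2 fold changes ranged in size from 0.46 to 2.28. The call rests on the block. In the same fit without the block no gene passed, the smallest adjusted p was 0.0767, and 355 genes had an unadjusted p under 0.05. DESeq2 with the block called 9 genes, all higher in A315T and all among the 56: Kif21b, Fchsd2, Irf2bp1, Elovl4, Adamts1, Map7, Rassf3, Ilvbl and Csf2. All 76 genes had a ratio of the same sign at both dates, as the blocked fit favours, against 55.7% of all tested genes.

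**Figure D1:**
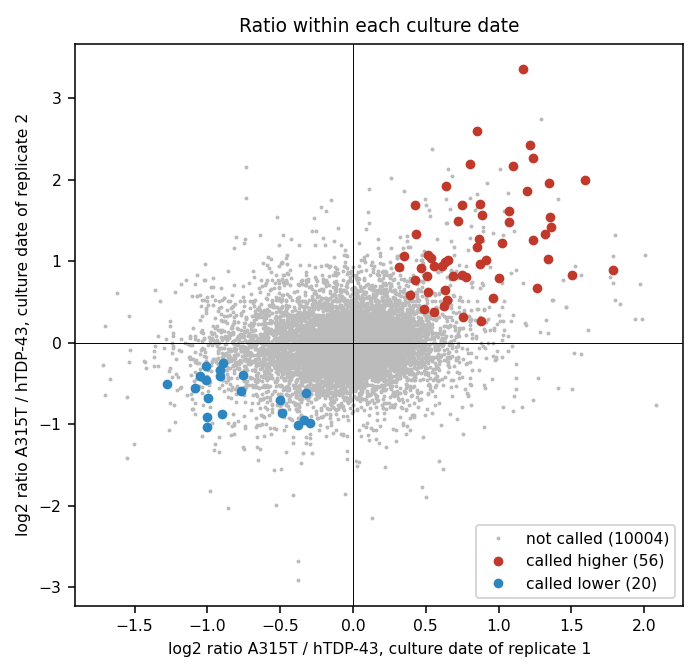
Each point is a gene, with the log2 ratio of A315T over hTDP-43 in the cultures of replicate 1 on the x axis and of replicate 2 on the y axis. The 56 genes called higher lie in the upper right and the 20 called lower in the lower left, and the other tested genes spread around 0.

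Kif21b, Fchsd2, Irf2bp1, Elovl4 and Adamts1 had the smallest p among the higher genes. Kif21b (chr1:136131389-136177998, GRCm38), a kinesin motor that moves along microtubules and limits their growth, was at 287.1 and 201.2 CPM in A315T and at 114.7 and 78.9 CPM in hTDP-43. Both A315T values lay above both hTDP-43 values. The log2 fold change was 1.34 ± 0.12 (SE; adjusted p = 2.08e-06; 0.236 without the block).

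Fchsd2, a membrane-bending adaptor of endocytosis, was nearly the same in the 2 libraries of each genotype, with 159 and 184.7 CPM in A315T and 61.7 and 62.4 CPM in hTDP-43. The groups stood well apart, with a log2 fold change of 1.46 ± 0.14 (adjusted p = 2.08e-06; 0.0767 without the block). Map7, a microtubule protein that recruits kinesin-1, was at 163.5 and 204.4 CPM in A315T against 87.9 and 68.4 CPM in hTDP-43. Its difference was larger at the second date, and the fitted log2 fold change was 1.21 ± 0.15 (adjusted p = 8.12e-05).

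Irf2bp1, a transcriptional corepressor that partners IRF2, was at 351.7 and 330.4 CPM in A315T and at 167.1 and 117.3 CPM in hTDP-43. Elovl4, the enzyme that lengthens very long chain fatty acids, was at 622.6 and 558.2 CPM against 341.1 and 230.8 CPM. In both genes the genotypes did not overlap, and the log2 fold changes were 1.26 ± 0.12 for Irf2bp1 (adjusted p = 2.08e-06) and 1.06 ± 0.11 for Elovl4 (adjusted p = 1.14e-05). For Elovl4 the GFP culture of the first date was at 606.4 CPM, close to the A315T values, and that of the second at 294.7 CPM.

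In the list of secreted signalling and matrix genes, 2 of 15 tested were called higher in A315T than in hTDP-43, beside the background of 0.556% for higher calls. These were Csf2, the cytokine GM-CSF, and Ccn1, a matrix protein also counted as an immediate-early gene. Csf2 was at 59.4 and 69.4 CPM in A315T and at 25.0 and 12.0 CPM in hTDP-43. Of its GFP values, 97.4 CPM lay above both A315T values and 18.5 CPM between the hTDP-43 values. The log2 fold change was 1.74 ± 0.25 (adjusted p = 0.000679). Ccn1 was at 58.7 and 55.5 CPM in A315T and at 33.2 and 11.3 CPM in hTDP-43, with a log2 fold change of 1.33 ± 0.26 (adjusted p = 0.0103). Its GFP values were 85.2 and 25.3 CPM. Both calls were lost in the blocked fit over all 6 MN1 total mRNA libraries (adjusted p by edgeR = 0.0535 for Csf2 and 0.0501 for Ccn1), in which 45 of the 56 higher genes and all 20 lower genes passed. In that fit the log2 fold change of Csf2 was 1.02 without A315T replicate 2 and 3.32 without A315T replicate 1. Adamts1, a secreted metalloprotease that cuts matrix proteoglycans, was outside that list. It was at 131.9 and 107.8 CPM in A315T and at 55.3 and 44.4 CPM in hTDP-43 (log2 fold change 1.27 ± 0.15, adjusted p = 5.49e-05).

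The other genes named by the rule as higher were Rassf3, Ilvbl, Opn3, Lzts3, Fam167a, Dpy19l1, Lrr1, a gene listed as ENSMUSG00000030771 and Gm15189. Opn3, an opsin, was at 147 and 154.2 CPM in A315T and at 79.8 and 78.2 CPM in hTDP-43. Dpy19l1, an enzyme that attaches mannose to tryptophan, was at 131.9 and 247.6 CPM in A315T and at 84.4 and 64.6 CPM in hTDP-43, so that most of its difference came from the second date. The log2 fold changes of these 9 genes lay between 0.79 and 1.53. Gm15189 is annotated as a processed pseudogene and may share reads with its parent gene, so its count is uncertain. Of the 56 higher genes 54 had both A315T libraries above both hTDP-43 libraries, against 15.6% of all tested genes with that order, the exceptions being Rnf157 and Gpr45.

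**Figure D2:**
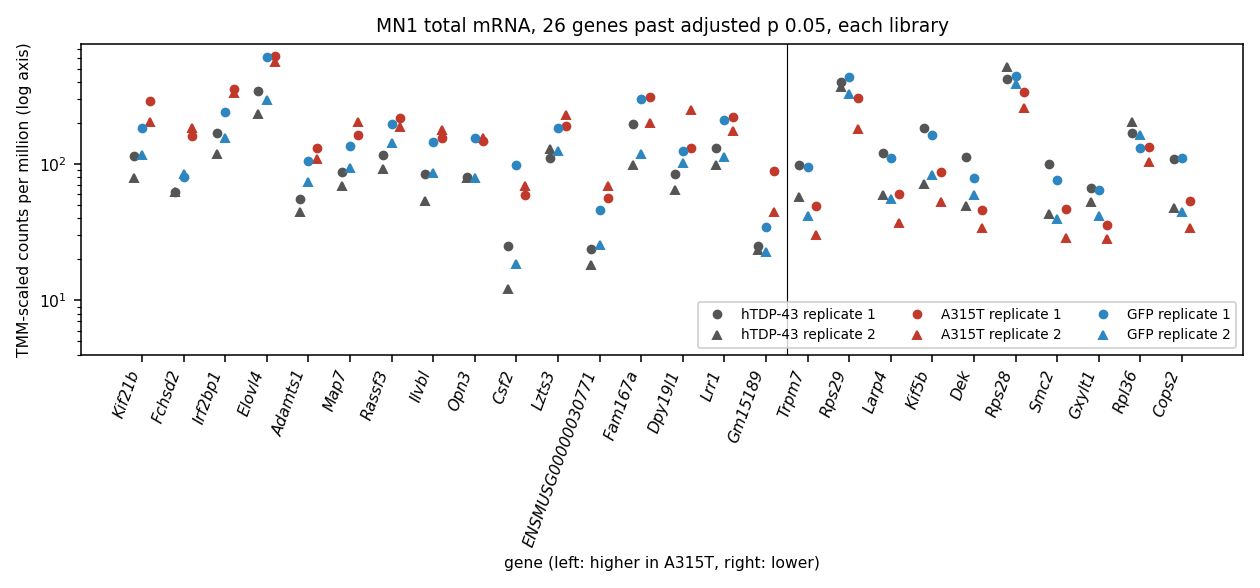
TMM-scaled CPM, on a log axis, of the 16 higher and 10 lower genes named by the rule in each of 6 MN1 total mRNA libraries, with circles for replicate 1 and triangles for replicate 2. A315T points of the higher genes lie above the hTDP-43 points of the same replicate, as with 287.1 against 114.7 for Kif21b, and those of the lower genes lie below them.

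Trpm7, Rps29, Larp4, Kif5b and Dek had the smallest p among the lower genes. Dek, a chromatin protein, was at 46.0 and 34.2 CPM in A315T and at 112.9 and 48.9 CPM in hTDP-43. Smc2, a core subunit of condensin, was at 46.4 and 28.8 CPM against 99.5 and 42.8 CPM. For Smc2 the A315T library of the first date lay above the hTDP-43 library of the second, so that the groups overlapped, whereas for Dek they did not. The log2 fold changes were -1.0 ± 0.19 for Dek (adjusted p = 0.00879) and -0.91 ± 0.19 for Smc2 (adjusted p = 0.0214).

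Kif5b, a heavy chain of kinesin-1, was at 87.9 and 52.8 CPM in A315T and at 182.8 and 70.7 CPM in hTDP-43, with a log2 fold change of -0.82 ± 0.15 (adjusted p = 0.00781). Its groups overlapped. Trpm7, an ion channel with a kinase domain, was at 48.8 and 29.9 CPM against 99.0 and 57.1 CPM, and Larp4, a protein that binds poly(A) tails, was at 59.8 and 36.8 CPM against 119.9 and 59.4 CPM. Trpm7 had the smallest p of the lower genes, with a log2 fold change of -0.98 ± 0.18 (adjusted p = 0.00563). Larp4, Kif5b, Smc2, Cops2, Nop58, Smc3 and Ranbp2 overlapped between genotypes, and the other 13 of 20 lower genes did not, against 15.6% of all tested genes with both A315T libraries below both hTDP-43 libraries. In the list of 36 tested kinesin and dynein genes 1 was called higher (Kif21b) and 1 lower (Kif5b), beside the background of 0.556% and 0.198%, and the median log2 fold change of that list was -0.07, or -0.0005 with the GC curve described next removed.

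Most of the lower genes had AT-rich exons, whereas Rpl36, Rps26, Cox6b1 and Rps28 lay above the median GC content of all tested genes. That content was 41.1% at the median over the 20 lower genes, with a range of 37.45% to 60.89%, 51.2% over the 56 higher genes and 50.1% over all tested genes. Across all tested genes the ratio of the first date moved with GC content, from a median log2 ratio of -0.42 in the lowest of 10 equal GC bins to 0.20 in the highest, while that of the second date ran from -0.07 to 0.02. Of the 20 lower genes, 12 lay in the lowest bin. When a GC curve was removed from each library in the blocked fit, 56 of the 56 higher genes and 11 of the 20 lower genes kept their call, among 122 calls in that fit (1.21% of the genes tested, 0.754% higher and 0.456% lower). Dek, Kif5b and Trpm7 kept it (adjusted p = 0.0181, 0.0153 and 0.0488) and Smc2, Larp4 and Cops2 did not (adjusted p = 0.0711, 0.078 and 0.298). The log2 fold changes were smaller in size after the correction, at -0.70 for Dek, -0.58 for Kif5b, -0.62 for Trpm7, -0.60 for Smc2, -0.53 for Larp4 and -0.41 for Cops2. This correction was chosen after the data had been seen.

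**Figure D3:**
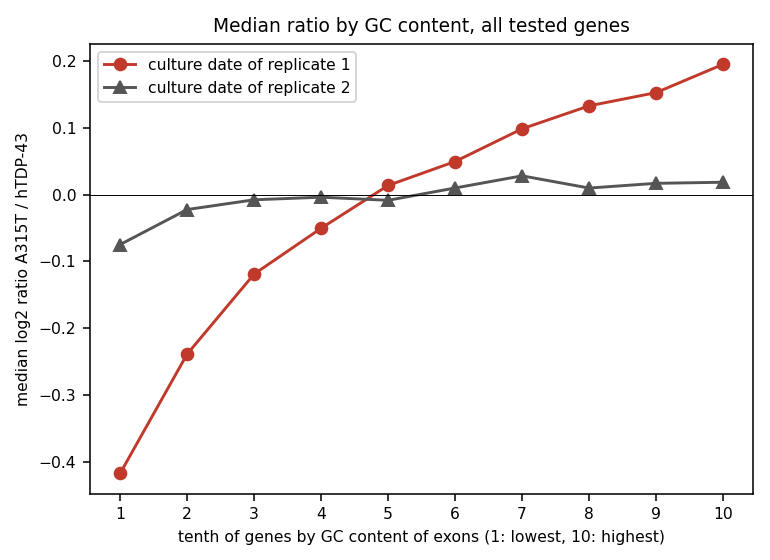
Median log2 ratio of A315T over hTDP-43 in each of 10 equal bins of the tested genes by the GC content of their exons, with circles for the culture date of replicate 1 and triangles for that of replicate 2. The line of the first date climbs from -0.42 to 0.20 and that of the second from -0.07 to 0.02.

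Cytosolic ribosomal protein genes had mostly negative log2 fold changes, larger at the second date. Of 82 tested, 4 were called lower (Rps29, Rps28, Rpl36 and Rps26), beside the background of 0.198%. Of the 82, 80 had a negative log2 fold change, and the median of the list was -0.26 against -0.003 over all tested genes. Their summed level was 25938 and 22749 CPM in A315T and 27197 and 30549 CPM in hTDP-43, which did not overlap. Within the first date the median log2 ratio was -0.07 and within the second -0.46. With the GC curve removed the median was -0.27, and 20 members passed. In ribosome footprints of the same cultures 0 of 81 tested members were called, and their median log2 fold change was -0.09. Of all genes tested in footprints, 0.235% were called lower. In the cortical neurons described below the median of the 82 genes was 0.21. Rps29, of the small subunit, was at 306.7 and 179.3 CPM in A315T and at 399.3 and 363.8 CPM in hTDP-43 (log2 fold change -0.67 ± 0.12, adjusted p = 0.00744). Rps28, also of the small subunit, was at 338.6 and 258.3 CPM against 415.6 and 511.2 CPM, and Rpl36, of the large subunit, at 132.6 and 104.1 CPM against 167.7 and 202.2 CPM. In all 3 genes the genotypes did not overlap. The genome holds many processed copies of ribosomal protein genes, so reads of these genes may have been lost or split in counting, and their counts are uncertain.

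**Figure D4:**
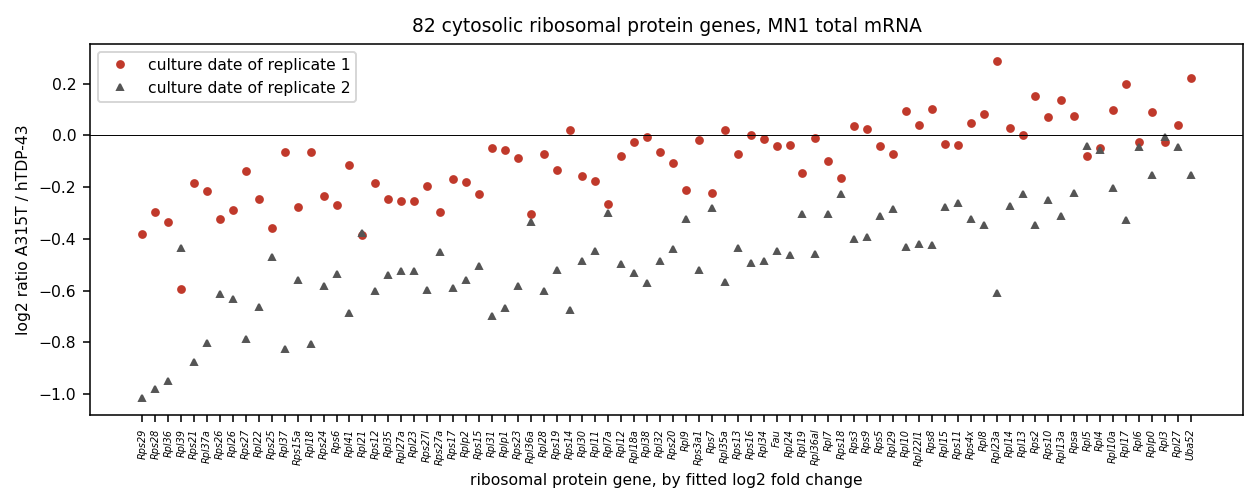
Log2 ratio of A315T over hTDP-43 for each of the 82 tested cytosolic ribosomal protein genes, ordered by fitted log2 fold change, with circles for the first culture date and triangles for the second. The triangle lies below the circle in 78 of the 82 genes, with medians of -0.46 and -0.07.

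The other pathway lists held 0 or 1 call each, beside the background of 0.556% for higher and 0.198% for lower calls, and a single call in lists of this size is not a result about the list. The lists of TDP-43 regulated mRNAs (21 tested, 1 higher, Dennd4a, a gene the study chose from these libraries), ALS and FTD genes (33 tested, none), immediate-early genes (25 tested, 1 higher, Ccn1) and DNA repair and chromatin genes (34 tested, 1 lower, Dek) had medians between -0.05 and 0.10. The first of these lists also holds Camta1 and Mid1ip1, which the study likewise chose from these libraries. No member passed among 24 interferon-stimulated genes, 18 p53 targets, 37 genes of the integrated stress and unfolded protein responses, 24 heat shock chaperones, 24 cholesterol synthesis genes, 28 S phase genes, 30 mitosis genes, 45 hnRNP and SR splicing factors or 21 neuronal cytoskeleton genes. Their medians lay between -0.18 (mitosis) and 0.10 (neuronal cytoskeleton). Of the glycolysis and hypoxia genes, 22 of 28 had a positive log2 fold change (median 0.11) with no call. All 8 tested mitochondrially encoded genes had a negative one (median -0.38), and none passed, the smallest adjusted p being 0.0679 for mt-Cytb. In the fit with the GC curve removed, where these genes carried no GC value of their own, 4 of the 8 passed. In ribosome footprints 4 of the 8 were called lower (mt-Nd2, mt-Nd6, mt-Co1 and mt-Cytb; 0.235% of all genes tested in footprints were called lower), with a median log2 fold change of -0.66 over the list.

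UG repeats, the sequence TDP-43 prefers, were looked for as 6 or more TG units on the sense strand of the annotated exons. They stood in 4 of the 56 higher genes (7.14%) and 2 of the 20 lower genes (10%), against 11.6% of 10064 tested genes. Gxylt1, an enzyme that adds xylose to Notch, fell from 66.9 and 52.6 CPM in hTDP-43 to 35.4 and 28.3 CPM in A315T (log2 fold change -0.91 ± 0.20, adjusted p = 0.0269) and held 3 of them, all in its 3′ UTR. Rnf157, an E3 ubiquitin ligase gene that rose, held 1 in its 3′ UTR. The stretches below are from the GRCm38 genome, minus strand, 5′ to 3′, with the repeat in capitals, and show what such a site looks like in a called mRNA; a match of letters is a description, not a binding site.
Gxylt1 (chr15:93244256-93244285): gtgcgTGTGTGTGTGTGTGTGTGTGttgac
Gxylt1 (chr15:93244289-93244318): tgtatgagTGTGTGTGTGTGTGagagtgag
Rnf157 (chr11:116336515-116336544): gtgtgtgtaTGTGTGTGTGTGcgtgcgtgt

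Ribosome footprints of the same cultures gave a second readout of these genes. In the footprints 54 of 7653 tested genes passed (0.706%). Of the 56 genes higher in total mRNA, 33 were tested in footprints, 24 had the same sign there (54% over all genes tested in both) and 7 were called, all higher (0.47% of all genes tested in footprints). These were Dennd4a, Kl, Epha8, Jmjd6, Rfxap, Spag4 and Gm14236, an antisense gene whose count is uncertain. The footprint values of the genotypes overlapped for Epha8 (249 and 94 CPM in A315T against 104 and 43 CPM in hTDP-43), Rfxap and Gm14236. Kl in A315T was at 5199 and 7323 CPM in footprints and at 183 and 300 CPM in total mRNA. Of the 20 lower genes 19 were tested, 12 had the same sign and none was called (0.235% of all were called lower), with a median log2 fold change of -0.03. Whether the footprint change of a gene differed from its total mRNA change was tested in 1 fit over all 8 libraries, where 9 of 10029 genes passed (0.0897%). Among the 76 called genes only Dennd4a did. Without the block neither the footprint fit (0 genes called, 179 with an unadjusted p under 0.05) nor the fit of the difference (0 called, 231 under 0.05) called a gene.

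Dennd4a, a guanine nucleotide exchange factor for the Rab10 GTPase, was among the 4 genes the study followed up. It chose them from these libraries, among genes it found altered in footprints but not in total mRNA. The direction of their footprints is therefore not independent evidence. Its total mRNA was at 152.8 and 174.5 CPM in A315T and at 103.6 and 90.2 CPM in hTDP-43 (log2 fold change 0.74 ± 0.13, adjusted p = 0.00589). Without the block the adjusted p by edgeR was 0.545, and DESeq2 with the block did not call the gene. Its footprints were at 445.3 and 372 CPM against 148 and 89.9 CPM (1.75 ± 0.16, adjusted p = 5.45e-19), and the footprint change exceeded the mRNA change by 1.04 ± 0.24 (adjusted p = 0.0475). The genotypes did not overlap in either readout. By qRT-PCR in separate transfections of MN1 cells, the paper saw no significant change in total Dennd4a mRNA.

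Mid1ip1, also called Mig12, a microtubule-binding partner of MID1, was at 199.5 and 203.9 CPM in A315T and at 173.5 and 201.5 CPM in hTDP-43 in total mRNA (log2 fold change 0.12 ± 0.11, adjusted p = 0.771). The footprint log2 fold change was 0.98 ± 0.15 (adjusted p = 8.95e-08), and the difference from the mRNA was 0.84 ± 0.21 (adjusted p = 0.0875). Camta1, a calmodulin-binding transcription factor, was at 17.2 and 96.1 CPM in A315T, at 19.2 and 27.8 CPM in hTDP-43 and at 18.4 and 83.8 CPM in GFP. The A315T value lay just below the hTDP-43 value at the first date and well above it at the second, and the log2 fold change was 1.03 ± 0.30 (adjusted p = 0.154). In footprints Camta1 was called, as were all 4 genes followed up, with a median log2 fold change of 1.58 over the 4. Of all genes tested in footprints, 0.706% were called. Pth1r, the parathyroid hormone receptor, was at 19.6 and 25.1 CPM in A315T and at 12.8 and 9.77 CPM in hTDP-43 (0.94 ± 0.31, adjusted p = 0.214), with a footprint log2 fold change of 1.62 ± 0.25 (adjusted p = 3.49e-07). In the paper's polysome gradients of MN1 cells Pth1r mRNA did not shift, and the paper holds that it might be a false positive. There Camta1, Mid1ip1 and Dennd4a mRNAs moved to heavier fractions when A315T was expressed. In the paper's other MN1 assays, wild-type hTDP-43 and A315T raised reporters with an untranslated region of Camta1 or Mid1ip1 by similar amounts. Both also raised CAMTA1 and MIG12 protein over untransfected neighbouring cells. For Dennd4a the paper found reporter output per mRNA raised by A315T and not by wild-type hTDP-43.

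**Figure D5:**
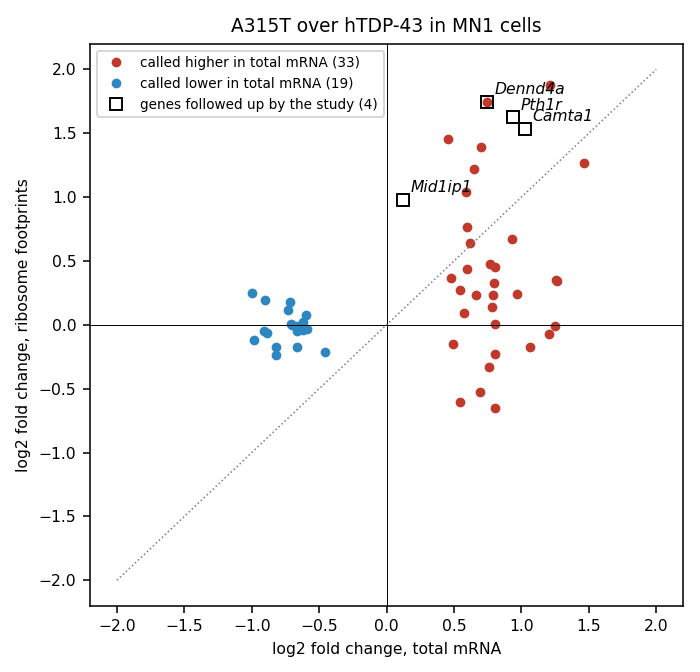
Log2 fold change of A315T over hTDP-43 in total mRNA (x axis) and in ribosome footprints (y axis) for the called genes that were tested in both, 33 higher and 19 lower, and for the 4 genes followed up by the study. The dotted line marks equal change. The lower genes spread around 0 on the y axis, and Dennd4a lies above the line at 0.74 and 1.75.

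Cortical neurons from C57BL/6J mice that carry a human TDP-43 transgene under the prion promoter, with or without the A315T mutation, were taken at embryonic day 16 and kept for 14 days in culture. They gave A315T against wild-type hTDP-43 in 6 libraries that share none with MN1. The transgenes come from separate mouse lines, and the paper names a FLAG tag in neurons for the mutant only. It reports somewhat more mutant than wild-type protein in the neurons and similar levels in MN1. Genotype, mouse line and protein level therefore cannot be told apart in the neurons. No gene passed there by edgeR (0 of 11585, with 81 at an unadjusted p under 0.05). The paper, which used DESeq, lists Csf2, Ccn1 (as Cyr61), Stard8 and Lrr1 as differing between these genotypes in neuron total mRNA. These genes are among the 56 called higher in MN1. All 56 higher MN1 genes were tested in neurons. Of these, 1 (Rnf157) had the same sign and 55 the opposite one, with a median log2 fold change of -0.61, whereas 44.1% of 9152 genes tested in both cell types had the same sign. Of the 56 genes, 51 (91.1%) had their highest neuron value in the hTDP-43 library of replicate 3, against 28.2% of all genes tested in both. That library held 600385 reads, and Lars2 took 14.1% of them, against 3.24% to 7.49% in the other 5. Without both libraries of replicate 3, an alternative chosen after seeing the data, 22 of the 56 had the same sign and the median was -0.04. In MN1 the Lars2 share too was higher in both A315T libraries than in both hTDP-43 libraries, and its part in the result was not tested. The difference between MN1 and neurons passed for none of the 76 genes (smallest adjusted p 0.509). An unadjusted p under 0.05 was found for 53 of the 76 and for 330 of all 9152 genes tested in both, and the 76 were chosen for their MN1 change, which this difference contains.

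Against the GFP cultures, which share libraries with the main comparison, the values of the same genes are given side by side only. Kif21b had a log2 fold change of 0.73 ± 0.10 for A315T over GFP and of -0.62 ± 0.11 for hTDP-43 over GFP. For Fchsd2 these were 1.07 ± 0.12 and -0.41 ± 0.14, for Csf2 0.32 ± 0.28 and -1.64 ± 0.22, and for Ccn1 0.15 ± 0.22 and -1.31 ± 0.21. For Rps29 they were -0.66 ± 0.10 and 0.02 ± 0.08.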

How the data were processed

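Counts of uniquely mapped reads per gene were deposited as featureCounts 1.4.4 output of total mRNA (poly(A) selected, fragmented) and ribosome footprints. The authors clipped adapters with cutadapt 1.8.1, removed reads of non-coding RNA with Bowtie2 and aligned to GRCm38 with TopHat2; the strand was not used, so reads of overlapping genes on opposite strands cannot be told apart. Nothing says how far the 2 cultures of a genotype are independent beyond their dates. In the blocked main fit, p-values rest on how far the ratio differs between the 2 dates and on a spread shared across genes. The spread between dates is not part of them. The common coefficient of variation between libraries was 0.076 with the block and 0.139 without it.

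Counts were tested in R 4.3.3 with edgeR 4.0.16 (TMM, minimum count 10, quasi-likelihood test, Benjamini-Hochberg adjustment over all tested genes), with the culture date as a block; DESeq2 1.42.0 and limma 3.58.1 were alternatives. CPM are TMM-scaled over the 6 MN1 total mRNA libraries. The study's methods name DESeq and no block. The labels give the same date to same-numbered libraries of the genotypes compared (1 GFP footprint library, not used in any test, bears another year), and the changes of the 2 genotypes between dates correlated at 0.40 over 10080 genes. Replicates differed by more than counting noise. The genes named were the 16 higher and 10 lower with the smallest p, Tardbp, the 4 genes followed up by the study, and up to 4 called members of each list; others named were chosen after their values were seen. The members, lists and the block were chosen with earlier results of these data known. Symbols and biotypes came from GENCODE M21 and exon GC from the GRCm38 genome. Scripts were tested on simulated counts. Neuron non-transgenic libraries and GFP and neuron footprints entered no test here.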

Additional observations from a re-analysis of the deposited data

How the results depend on the processing

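With 2 libraries a genotype, the count of 76 genes (56 higher, 20 lower) moved with the settings. Without the replicate block, which treats the dates as unrelated, it was 0 (0 higher, 0 lower), as were the footprint count (54 with the block) and the count for the footprint against total mRNA change (9 with it). DESeq2 with the block gave 9 (9 higher, 0 lower) in total mRNA and 1 in footprints. It was 181 without a low-count filter (88 higher, 93 lower), 131 at a minimum count of 30 (66 lower) and 141 with protein-coding genes only (76 lower). Lower calls were 35 with RLE size factors, 43 with robust dispersion and 36 with limma-voom. Chosen after seeing the data, a GC correction with the replicate block gave 122 (46 lower), and GC and length correction 159 (106 higher, 53 lower). In neurons the count of 0 became 26 without the filter and 15 without both libraries of replicate 3. Leaving out 1 library in turn in the blocked fit over all MN1 total mRNA libraries gave 578 calls without A315T replicate 2 (154 higher, 424 lower), 217 without A315T replicate 1 (102 higher, 115 lower), 206 without hTDP-43 replicate 2 (148 lower) and 60 without hTDP-43 replicate 1 (34 higher). In the fit of 4 libraries with no block it gave 17 without A315T replicate 2 (16 higher, 1 lower), 20 without A315T replicate 1 (17 higher, 3 lower), 334 without hTDP-43 replicate 2 (263 lower) and 61 without hTDP-43 replicate 1 (10 lower). There 1 genotype has 1 library, assumed to vary like the other. In that fit without hTDP-43 replicate 1 the log2 fold changes of Kif5b (0.0311), Smc3 (0.19) and Ranbp2 (0.043) turned positive, and without A315T replicate 1 that of Gpr45 turned to -0.14. None of these leave-one-out fits called all 76 genes. The blocked fit over all MN1 total mRNA libraries was also read without hTDP-43 replicate 1. There Kif5b moved from -0.83 to -0.49, Dek from -1.02 to -0.51, Smc2 from -0.92 to -0.65 and Larp4 from -0.89 to -0.79. Rps29 moved from -0.66 to -0.90, Rps28 from -0.62 to -0.92 and Trpm7 from -0.99 to -1.11. The cause of these moves was not tested. All 76 genes kept their sign in the no-block, DESeq2, limma-voom and GC-corrected fits. The ribosomal protein median stayed negative in every setting, from -0.45 to -0.11 leaving out a library and from -0.27 to -0.15 otherwise, with 0 to 40 members called.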
